A study of Mus musculus with 3 samples.

Results

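The transcripts of 8 photoreceptor genes were followed through glial cells sorted from injured mouse retina, where rods and cones were not the cells being sorted. The members were chosen by gene name: Gngt1, Gnat1, Sag and Pdc for rods, and Pde6h, Arr3, Opn1sw and Opn1mw for cones, which makes 8 of the 18478 genes in the count table. The cells came from adult mice given tamoxifen and then N-methyl-D-aspartate (NMDA), a glutamate receptor agonist that is toxic to some retinal neurons. Whether rods or cones died was not measured in these data. The mice carried Yap5SA+/tg, a transgene for an active form of the transcriptional co-activator YAP, with the reporter R26R-tdTomato+/tg and the recombinase Glast-CreERT2+/tg (Glast-CreERT+/tg in some labels). The tdTomato-positive cells were sorted 2 days later and loaded on 10X Chromium droplets in 3 runs. All 3 runs share these transgenes and treatments, so there was no uninjured retina, no retina without Yap5SA and no untreated group, and the labels do not say whether the runs came from separate animals. The p-values below therefore measure the spread between these 3 runs, which may be technical. The Glast promoter that drives the recombinase is active in Müller glia and in astrocytes, which limits the sort as a way to obtain Müller glia alone.

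Rods and cones turn light into an electrical signal through parallel sets of proteins. A light-sensitive opsin activates the G protein transducin, transducin activates a phosphodiesterase that breaks down cyclic GMP, and channels held open by cyclic GMP then close. Arrestins end the signal by binding the activated opsin. Müller glia span the whole retina, wrap the photoreceptor cell bodies and are known to take up debris of dying neurons, as microglia are. In droplet sequencing, RNA released by broken cells can also be counted with any captured cell. The question set to these data was how the rod and cone transcripts varied between kinds of glia, with the cell total and with the run, which bears on uptake and on carried-over RNA.

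Cells were put in 4 classes by transcripts other than the members. Igfbp2-high Müller glia had Rlbp1, Aqp4 and Abca8a at 4 or more per 10000 unique molecular identifiers (UMIs) in sum and Igfbp2 at 5 or more, and numbered 3455 cells (1144, 1241 and 1070 in runs 1, 2 and 3). Microglia had C1qa, C1qb and C1qc at 10 or more per 10000 in sum and numbered 62 (40, 15 and 7). Astrocytes had at least 1 UMI of Pax2 and under 4 per 10000 of the Müller transcripts, and numbered 176 (46, 67 and 63). Igfbp2-low Müller glia had Igfbp2 under 1 per 10000 and numbered 14422 (4248, 5114 and 5060). A further 2837 Müller glia lay between the Igfbp2 limits, and 3720 of the 24672 cells kept fell in no class, of which 77.8% had Igfbp2 at 5 or more per 10000.

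Microglia and astrocytes carried most transcripts of their names, while the summed Müller list did not set Müller glia apart from astrocytes. Microglia held 32.6 ± 11.7 UMIs per cell of Tyrobp, a signalling adaptor of myeloid cells (SD, n = 3 runs, as for every level here), against 0.0202 ± 0.0177 in Igfbp2-high Müller glia, 0.0199 ± 0.0345 in astrocytes and 0.00742 ± 0.00376 in Igfbp2-low Müller glia. Astrocytes held 82.8 ± 14.5 UMIs per cell of Gfap, a glial intermediate filament, against 7.79 ± 1.76 in Igfbp2-low Müller glia. Aldh1l1, in the same astrocyte list, went the other way, at 0.579 ± 0.200 against 1.50 ± 0.347. The 15 listed Müller markers summed to 332 ± 39.0 and 371 ± 46.3 UMIs per cell in Igfbp2-high and Igfbp2-low Müller glia. Their sum was 360 ± 61.6 in astrocytes and 194 ± 102 in microglia. The largest parts were Dbi (131) and Vim (120) in astrocytes and Apoe (116) in microglia, named after their values were seen. Rlbp1 and Crym were at 2.45 and 4.52 UMIs per cell in astrocytes, against 16.3 and 64.7 in Igfbp2-low Müller glia. Of the 15 markers, edgeR called 11 lower in astrocytes than in Igfbp2-low Müller glia and 4 higher, against 6.86% and 56% of all genes. Rlbp1, Aqp4 and Abca8a are among the 15 and set the limit between these classes, so the fall of their sum followed from the rule. Transcripts of other classes were also counted: 20 of the 62 microglia had Müller transcripts at 1 or more per 10000, and 3 also met the Pax2 rule for astrocytes. All 15 listed Müller markers were detected in microglia. Whether these counts came from mixed cells, carried-over RNA or the microglia themselves was not tested. Total UMIs per run ranged over 94858762, 122888236 and 97032672, and pairs of runs shared 83 to 108 cell barcodes. The cell total differed between classes, averaging 21055 ± 1116 UMIs in Igfbp2-high Müller glia, 15716 ± 6367 in microglia, 16644 ± 1828 in astrocytes and 9806 ± 991 in Igfbp2-low Müller glia, so levels are given in UMIs per cell and, where it matters, as a share of the cell's RNA.

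The genes lie on 4 chromosomes of the mm10 build. Gngt1 is at chr6:3993792-3997436, Sag at chr1:87803680-87845158, Pdc at chr1:150319417-150333906 and Arr3 at chrX:100605497-100618493, all on the forward strand, and Gnat1 is at chr9:107674474-107679712 on the reverse strand. Pde6h (chr6:136923832-136968865, forward) overlaps Arhgdib on the other strand, and Opn1sw (chr6:29376671-29388468, reverse) overlaps Calu. Opn1mw is at chrX:74127464-74150760 on the forward strand. Whether the counting used strand is not given in the sources used here, so reads of Pde6h and Opn1sw and of their opposite-strand partners cannot be told apart from the annotation alone. Arhgdib was at 8.09 ± 2.57 UMIs per cell in microglia, where Pde6h was at 0.0972 ± 0.147.

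Many photoreceptor genes are driven by the transcription factors CRX and NRL: CRX acts in rods and cones, NRL in rods. The core letters of their sites, TAATCC for CRX and TGCTGA for one part of the NRL site, were searched on both strands from 250 bases before to 50 after the start of each gene in RefSeq (GRCm38.p6), which held 7 of the 8 members. TAATCC was found in 2 members, Gngt1 and Sag, and in 7.06% of all 32851 promoters. TGCTGA was found in Sag and Opn1sw and in 19.5% of all promoters, and both motifs together in Sag and in 1.36%. The 2 windows with a CRX core are shown because they are rod genes whose transcripts were counted together in the same cells, as described below. The capitals mark GGATTA, which is TAATCC read on the other strand, and TGCTGA. Relative to the RefSeq start, GGATTA begins at -44 in Gngt1 and -87 in Sag, and TGCTGA at -187 in Sag. The RefSeq starts of Gngt1, Pde6h and Opn1sw lie inside the genes as positioned above, and so do the matches in Gngt1 and Opn1sw. A match describes letters only, and a window without a match says nothing of the factor.
Gngt1 (chr6:3993758-3994057, forward): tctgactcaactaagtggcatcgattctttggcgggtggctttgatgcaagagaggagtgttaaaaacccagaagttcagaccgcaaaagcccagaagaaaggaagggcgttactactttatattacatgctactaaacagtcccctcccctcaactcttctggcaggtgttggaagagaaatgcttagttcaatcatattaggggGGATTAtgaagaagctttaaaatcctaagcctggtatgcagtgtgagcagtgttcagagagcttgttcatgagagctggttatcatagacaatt
Sag (chr1:87803430-87803729, forward): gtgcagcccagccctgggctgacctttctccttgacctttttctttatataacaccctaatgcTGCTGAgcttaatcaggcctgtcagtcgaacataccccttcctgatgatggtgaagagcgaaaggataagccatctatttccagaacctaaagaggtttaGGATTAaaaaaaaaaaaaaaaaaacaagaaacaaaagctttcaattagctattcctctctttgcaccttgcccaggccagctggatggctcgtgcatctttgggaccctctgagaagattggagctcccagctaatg

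Rod transcripts were counted in most Müller glia, at numbers per cell that overlapped between the Igfbp2-high and Igfbp2-low classes. The 4 rod members summed to 6.11, 5.10 and 6.89 UMIs per cell in runs 1, 2 and 3 of Igfbp2-high Müller glia. Microglia held 1.20, 4.53 and 1.57, astrocytes 0.978, 1.00 and 0.603, and Igfbp2-low Müller glia 5.76, 5.28 and 5.24. Both Müller classes lay above both other classes in every run. Müller glia between the Igfbp2 limits held 5.56 over all their cells, and the cells in no class 4.74.

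Gngt1 encodes the gamma subunit of rod transducin. It was at 1.43, 1.21 and 1.62 UMIs per cell in runs 1, 2 and 3 of Igfbp2-high Müller glia, 0.175, 1.13 and 0.429 in microglia, 0.152, 0.179 and 0.159 in astrocytes, and 1.48, 1.50 and 1.39 in Igfbp2-low Müller glia. The Müller classes overlapped, microglia of run 2 stood close to them, and astrocytes were the lowest class by mean, with microglia of run 1 within their range.

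Gnat1 encodes the alpha subunit of rod transducin. Its levels were 1.21, 1.24 and 1.41 UMIs per cell in Igfbp2-high Müller glia, 0.175, 1.00 and 0.286 in microglia, 0.239, 0.269 and 0.0794 in astrocytes, and 1.21, 1.25 and 1.04 in Igfbp2-low Müller glia. Here microglia and astrocytes overlapped, and again run 2 gave the highest microglia.

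Sag encodes the arrestin of rods. It was at 2.07, 1.81 and 2.65 UMIs per cell in Igfbp2-high Müller glia, 0.575, 1.20 and 0.714 in microglia, 0.326, 0.433 and 0.349 in astrocytes, and 1.76, 1.64 and 1.96 in Igfbp2-low Müller glia. Every microglia run lay above every astrocyte run, and every run of both lay below every run of the Müller classes.

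Pdc encodes phosducin, which binds the beta and gamma subunits of transducin. Its levels were 1.40, 0.841 and 1.21 UMIs per cell in Igfbp2-high Müller glia, 0.275, 1.20 and 0.143 in microglia, 0.261, 0.119 and 0.0159 in astrocytes, and 1.31, 0.888 and 0.852 in Igfbp2-low Müller glia. Run 1 was the highest run in 3 classes and microglia were highest in run 2.

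**Figure D1:**
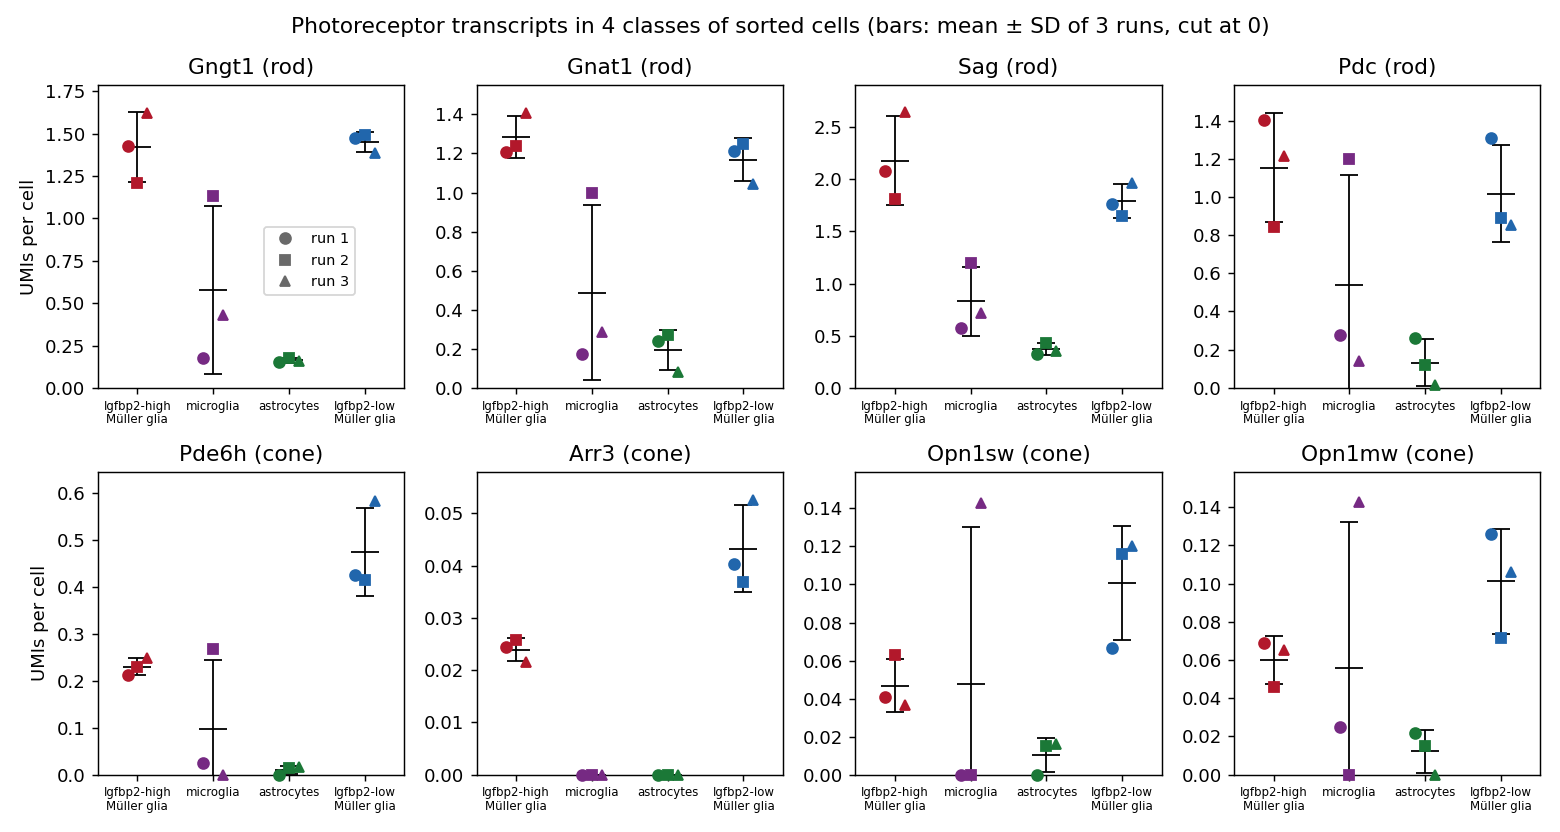
UMIs per cell of each of the 8 members (y axes, linear, one scale per gene) in the 4 classes of cells (x axes); points are runs, and the bars are mean ± SD of the 3 runs, cut at 0. The 4 rod members sit at similar levels in both Müller classes and lower in astrocytes, while each cone member is lower in every run of Igfbp2-high than of Igfbp2-low Müller glia.

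Igfbp2-high against Igfbp2-low Müller glia was the comparison between cells that differ in this growth factor binding protein, at 64.7 and 0.106 UMIs per cell, and in cell total. In UMIs per cell, edgeR called 76.9% of the 13680 genes tested higher in Igfbp2-high cells and 7.92% lower, and the median change of all genes was 1.08 on the log2 scale. Against that background the rod members stayed near 0: the log2 change was -0.04 (SE 0.13) for Gngt1, 0.14 (SE 0.13) for Gnat1 and 0.18 (SE 0.14) for Pdc, with edgeR adjusted p of 0.785, 0.299 and 0.221. Sag rose by 0.27 (SE 0.13, edgeR adjusted p = 0.0414), a call that was lost without any one of the runs (adjusted p 0.0907 to 0.164). Relative to the median of all genes, the rod members stood at -1.12 (Gngt1), -0.94 (Gnat1), -0.81 (Sag) and -0.90 (Pdc).

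As a share of RNA, with TMM scaling, all 4 rod members fell in Igfbp2-high Müller glia, by 1.16 (Gngt1), 0.98 (Gnat1), 0.85 (Sag) and 0.94 (Pdc) on the log2 scale, where edgeR called 39% of all genes lower. The number of rod UMIs in a cell thus differed little between the classes while the cell total differed 2.15-fold, and the direction of the 3 members with a positive change per cell turned with the scaling.

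Cone transcripts fell in Igfbp2-high Müller glia on both scales. The 4 cone members summed to 0.347, 0.363 and 0.372 UMIs per cell in Igfbp2-high Müller glia, 0.05, 0.267 and 0.286 in microglia, 0.0217, 0.0448 and 0.0317 in astrocytes, and 0.658, 0.638 and 0.862 in Igfbp2-low Müller glia. Pde6h encodes the inhibitory gamma subunit of the cone phosphodiesterase and was at 0.212, 0.229 and 0.249 UMIs per cell in runs 1, 2 and 3 of Igfbp2-high Müller glia, against 0.426, 0.414 and 0.583 in Igfbp2-low Müller glia. The log2 change was -1.03 (SE 0.12, edgeR adjusted p = 8.71e-11).

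Arr3, the cone arrestin, was at 0.0245, 0.0258 and 0.0215 UMIs per cell in Igfbp2-high Müller glia, against 0.0403, 0.0368 and 0.0526 in Igfbp2-low Müller glia. It fell by 0.83 on the log2 scale (SE 0.22, edgeR adjusted p = 5.77e-04). Opn1sw, the short-wavelength cone opsin, was at 0.0411, 0.0629 and 0.0364 UMIs per cell in Igfbp2-high Müller glia, against 0.0664, 0.116 and 0.120 in Igfbp2-low Müller glia, and fell by 1.08 (SE 0.17, edgeR adjusted p = 1.37e-07). Opn1mw, the medium-wavelength cone opsin, was at 0.0691, 0.0459 and 0.0654 UMIs per cell in Igfbp2-high Müller glia, against 0.126, 0.0718 and 0.106 in Igfbp2-low Müller glia, and fell by 0.74 (SE 0.15, edgeR adjusted p = 1.75e-05). All 4 cone members were thus called lower, against 7.92% of all genes called lower. The call was lost for Arr3 (edgeR adjusted p = 0.100) and Opn1sw (adjusted p = 0.106) without the 1% of cells richest in member UMIs. That cut was made on the counts compared, so it describes where the UMIs lay.

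Rod and cone UMIs were spread over the cells in different ways. Of the Igfbp2-low Müller glia, 77.4% had at least 1 UMI of the 4 rod members, the median was 3 and the highest count 122, and the 1% of cells richest in a rod gene held 10.1% (Gnat1) to 11.3% (Pdc) of its UMIs. For the cone genes the richest 1% of these cells held 59.3% (Pde6h), 77.8% (Arr3), 83.5% (Opn1sw) and 75.6% (Opn1mw). Cone UMIs were absent from 86.9% of Igfbp2-low Müller glia, and 224 cells with 10 or more held 71.3% of all cone UMIs of that class. In Igfbp2-high Müller glia 18 cells with 10 or more held 42.5%. For rods, the cells with 10 or more UMIs were 20.7% of Igfbp2-high Müller glia with 67.5% of the rod UMIs, and 17.4% of Igfbp2-low Müller glia with 59.2%.

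None of the 62 microglia and 176 astrocytes had 5 or more cone UMIs, and the highest counts were 2 and 1. Cells with 5 to 9 and with 10 or more were 0.874% and 1.55% of Igfbp2-low Müller glia. In Igfbp2-high Müller glia they were 0.724% and 0.521%, so at such shares classes this small could hold few or none. The cells rich in cone UMIs were also rich in rod UMIs: 43 Igfbp2-high Müller glia with 5 or more cone UMIs held 21.1 rod UMIs per cell against 5.80 in the other 3412, and 350 such Igfbp2-low cells held 15.1 against 5.16 in the other 14072. Their Rlbp1, a retinoid-binding protein of Müller glia, was 15.3 against 12.3 UMIs per cell in the Igfbp2-high class and 12.5 against 16.3 in the Igfbp2-low class. Their median totals were 19946 against 20312.5 UMIs in the Igfbp2-high class and 9922.5 against 9228.5 in the Igfbp2-low class. Without all cells of 5 or more cone UMIs, 3 of the 4 cone changes turned sign between the Müller classes and were not called. Pde6h was then at 0.15, Opn1sw at 0.32 and Opn1mw at 0.0714 on the log2 scale, and Arr3 gave no value. The cut was made on the cone counts compared, and took 350 Igfbp2-low and 43 Igfbp2-high cells. This refit therefore cannot test the difference and describes only where the cone UMIs lay. No doublet caller was run, so doublets stayed in the counts.

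**Figure D2:**
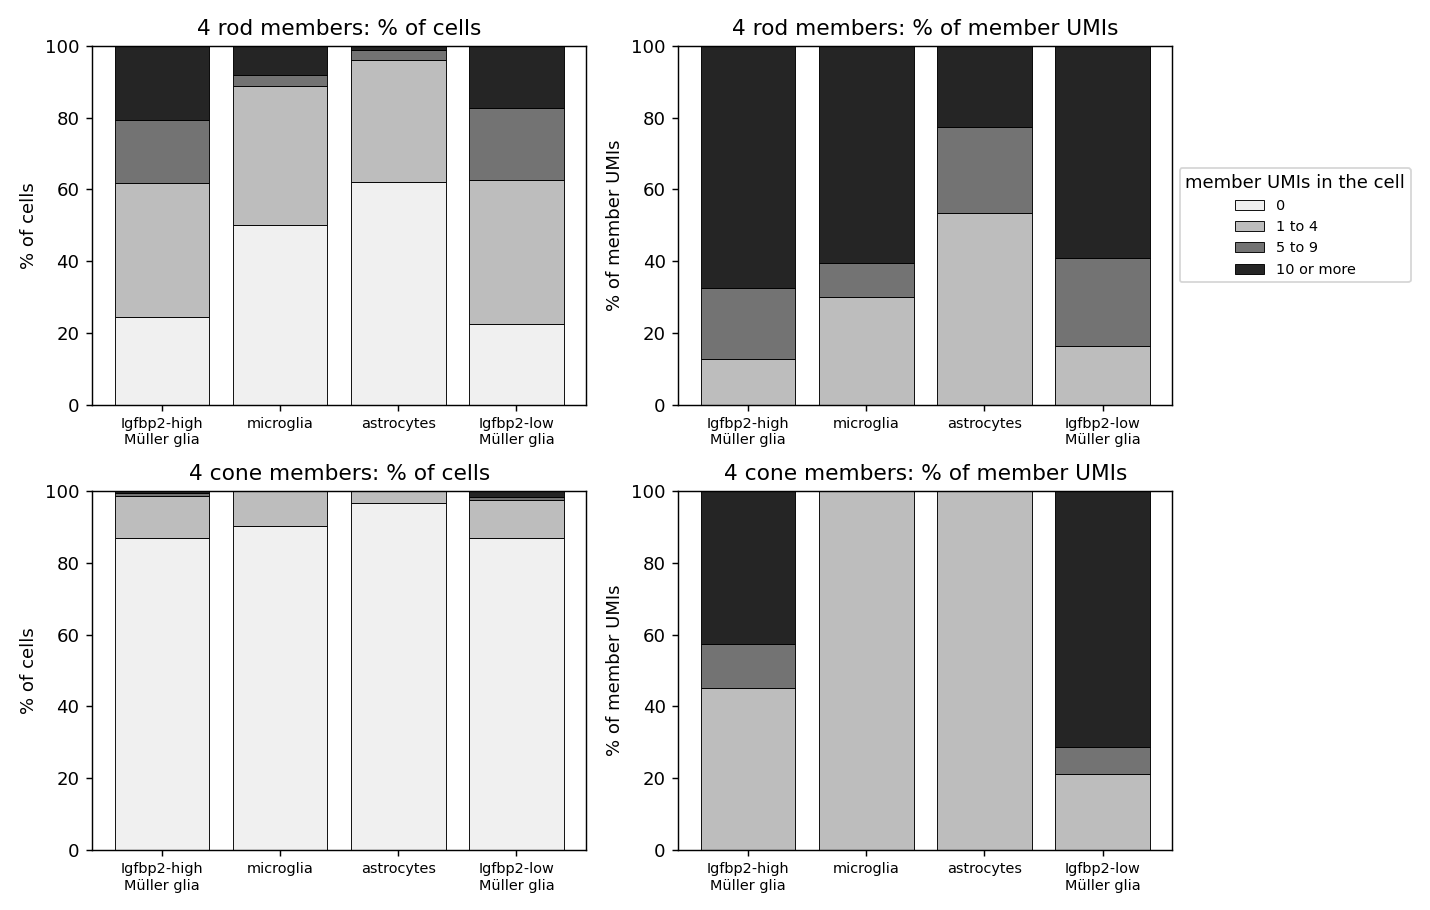
Share of cells (left, % of the class) and of member UMIs (right, %) by the number of rod (top) or cone (bottom) UMIs in the cell, for the 4 classes over all 3 runs. Cone UMIs in Igfbp2-low Müller glia lie mostly in the 224 cells with 10 or more, which are 1.55% of that class, whereas the cells with 10 or more rod UMIs are 17.4% of it.

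Some pairs of members were followed within single cells. Across cells of one class and run (1070 to 5114 cells), Pearson's r of log counts was 0.53 to 0.69 for Gngt1 with Sag over the 6 Müller sets. Between rod and cone sums it was 0.20 to 0.26. Within cones, Pde6h went with Opn1mw at 0.44 to 0.78, with Arr3 at 0.42 to 0.75 and with Opn1sw at 0.13 to 0.43, and Opn1sw with Opn1mw gave -0.00 to 0.29. The other pairs of rod members were not computed. The rod sum with Rlbp1 gave -0.03 to 0.09. Cells of one set share a library, and a higher cell total raises every count, so these values are descriptions.

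In Igfbp2-high Müller glia the rod UMIs of a cell climbed less with its total than Müller transcripts did. Cells of each class and run were ranked by total and divided into 5 bins of equal size. In Igfbp2-high Müller glia the summed rod members went through 4.94 ± 1.41, 5.38 ± 1.33, 5.89 ± 1.40, 6.72 ± 1.08 and 7.25 ± 0.841 UMIs per cell from the lowest to the highest bin, while the mean total went through 8457, 15263, 20286, 25643 and 35665. Glul, the glutamine synthetase of Müller glia, went through 4.61 to 19.1 UMIs per cell over the same bins. Per 10000 UMIs, the rod members thus stood at 5.96 in the lowest bin and 2.04 in the highest, and Glul at 5.49 and 5.34.

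In Igfbp2-low Müller glia the rod members went through 3.57 ± 0.201, 5.06 ± 0.361, 5.54 ± 0.315, 5.81 ± 0.484 and 7.15 ± 0.872 UMIs per cell, with totals of 5714 in the lowest and 15313 in the highest bin. In the lowest and the highest bin of this class Glul was at 14.2 and 23.1 UMIs per cell, Rlbp1 at 9.68 and 22.2, and Crym, another Müller transcript, at 29.2 and 107. The rod members thus climbed by a larger factor than Glul and by a smaller one than Rlbp1 and Crym. Bins with near totals could be set side by side: at 8457 UMIs the Igfbp2-high cells held 4.94 ± 1.41 rod UMIs and at 7848 the Igfbp2-low cells 5.06 ± 0.361, a difference within the spread between runs. At 15263 UMIs the Igfbp2-high cells held 5.38 ± 1.33 and at 15313 the Igfbp2-low cells 7.15 ± 0.872. These differences were not tested. For the summed cone members, the Igfbp2-high bins ranged over 0.254 to 0.460 UMIs per cell with no order by total, while the Igfbp2-low bins went through 0.342, 0.505, 0.860, 0.730 and 1.16 from the lowest to the highest.

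**Figure D3:**
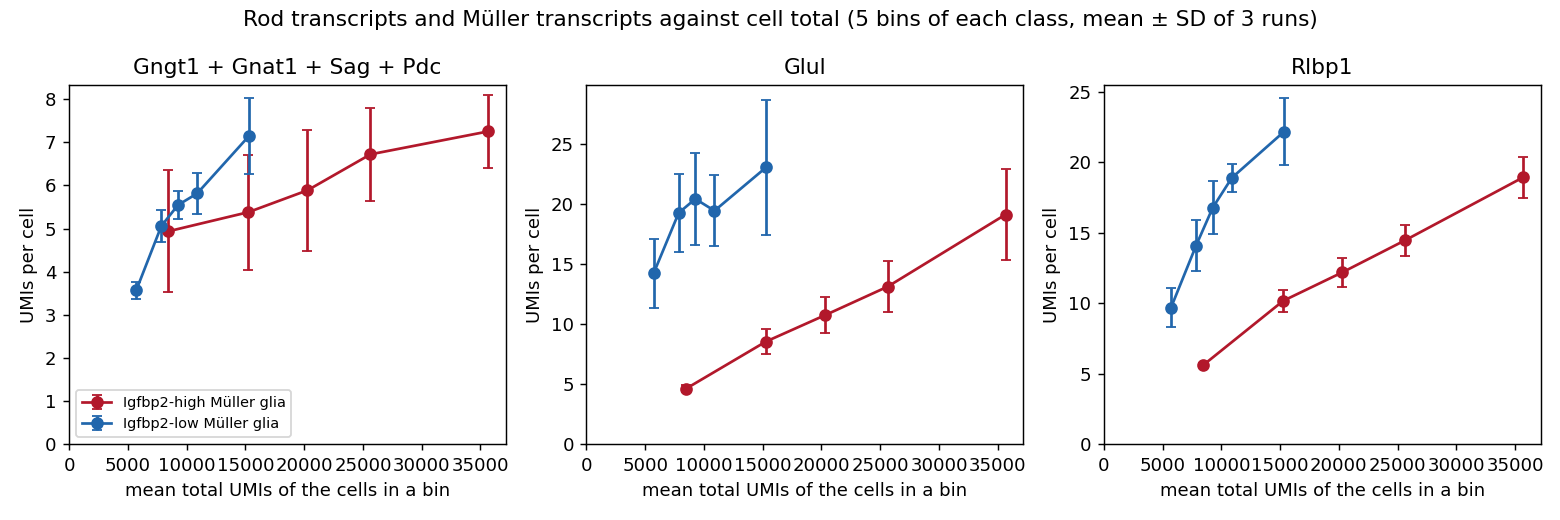
UMIs per cell (y axes) of the summed rod members, Glul and Rlbp1 against the mean total UMIs (x axes) of 5 bins of Igfbp2-high and Igfbp2-low Müller glia; points and bars are mean ± SD of 3 runs. In Igfbp2-high cells Glul and Rlbp1 climb more steeply with the total than the rod members, which stand at 4.94 in the lowest and 7.25 in the highest bin.

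The make-up of the rod UMIs varied with the run and between the Müller classes. Pdc made up 22.9% of the rod UMIs in Igfbp2-high and 22.7% in Igfbp2-low Müller glia of run 1, 16.5% and 16.8% in run 2, and 17.6% and 16.2% in run 3. Sag made up 33.9% and 30.6% in run 1, 35.5% and 31.2% in run 2, and 38.4% and 37.5% in run 3, in Igfbp2-high and Igfbp2-low cells in turn. Gnat1 took its largest share in run 2 in both classes, with 24.3% in Igfbp2-high and 23.7% in Igfbp2-low cells. Gngt1 was a smaller part in Igfbp2-high cells in every run, at 23.3%, 23.7% and 23.5%, against 25.6%, 28.3% and 26.4% in Igfbp2-low cells. In run 2 the exact binomial 95% intervals of the classes did not overlap for Gngt1 (22.7 to 24.8 in Igfbp2-high and 27.8 to 28.9 in Igfbp2-low cells) or for Sag (34.3 to 36.7 and 30.6 to 31.7).

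Over the sum of the 3 runs, exact binomial 95% intervals of the smaller classes were wide. Of 127 rod UMIs in microglia, 21.3% (14.5 to 29.4) were Gngt1, 18.9% (12.5 to 26.8) Gnat1, 36.2% (27.9 to 45.2) Sag and 23.6% (16.5 to 32.0) Pdc. Of 150 in astrocytes, 19.3% (13.3 to 26.6) were Gngt1, 22.7% (16.2 to 30.2) Gnat1, 44.0% (35.9 to 52.3) Sag and 14.0% (8.88 to 20.6) Pdc. Igfbp2-low Müller glia, with 77970 rod UMIs, had 26.8% (26.5 to 27.2), 21.6% (21.3 to 21.8), 33.1% (32.8 to 33.5) and 18.5% (18.2 to 18.8) of the same genes. The microglia intervals hold the Igfbp2-low shares for 4 of the 4 genes. The astrocyte intervals hold them for Gnat1 and Pdc, and for Gngt1 and Sag the Igfbp2-low share lies just outside. By run some shares departed further: astrocytes of run 3 had Pdc at 2.63% (0.0666 to 13.8) and Sag at 57.9% (40.8 to 73.7), and microglia of run 1 had Sag at 47.9% (33.3 to 62.8), each with the Igfbp2-low share of its run outside the interval. UMIs of 1 cell are not independent, so the intervals cover counting error only. Of the cone UMIs, Pde6h made up 63.6% (60.9 to 66.3) in Igfbp2-high and 66.0% (65.1 to 66.9) in Igfbp2-low Müller glia.

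**Figure D4:**
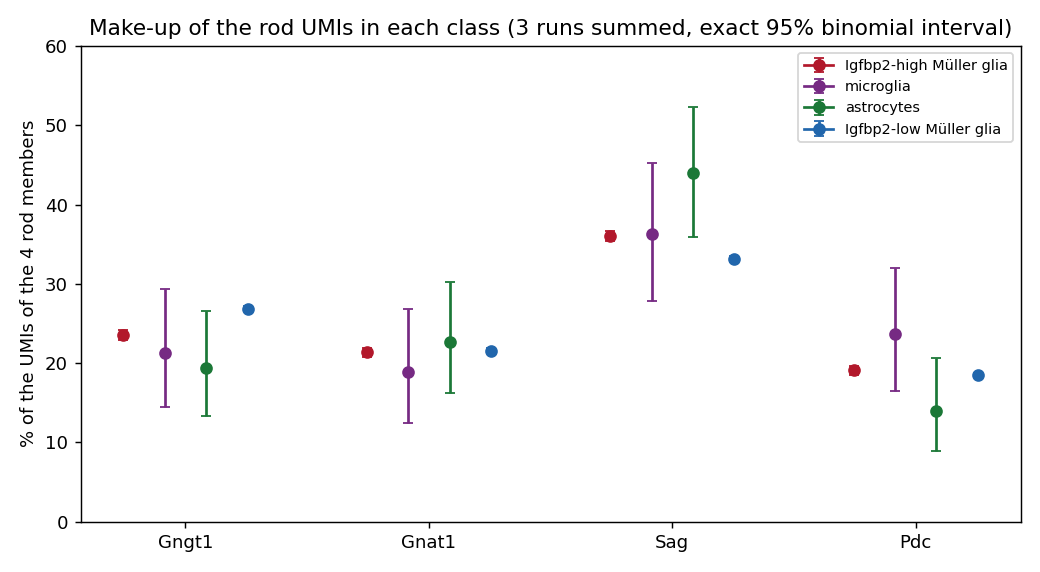
Share of each rod gene (x axis) among the UMIs of the 4 rod members (y axis, %) in the 4 classes; points are the 3 runs summed, and bars the exact binomial 95% interval, which covers counting error only. The microglia and astrocyte intervals are wide, resting on 127 and 150 UMIs, and Sag is the largest part in each class.

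Microglia held fewer rod UMIs per cell than Igfbp2-low Müller glia. All 4 rod members fell, by 1.68 (Gngt1, SE 0.33), 1.55 (Gnat1, SE 0.35), 1.19 (Sag, SE 0.26) and 1.16 (Pdc, SE 0.37) on the log2 scale, with edgeR adjusted p of 3.48e-05, 2.42e-04, 1.76e-04 and 0.00865. Of all genes tested, 10.2% were called lower and 34% higher, and the median change was 0.45. Relative to that median the members stood at -2.13, -2.00, -1.64 and -1.60. The calls rested on run 1, which held 40 of the 62 microglia: without it, none of the 4 was called (edgeR adjusted p 0.212 to 0.988), and Pdc stood at -0.01. Without the 15 microglia of run 2, whose mean total was 20644 UMIs, the falls were larger, at -2.78 (Gngt1), -2.59 (Gnat1), -1.57 (Sag) and -2.28 (Pdc).

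Cone transcripts in microglia were few. Pde6h was at 0.0250, 0.267 and 0 UMIs per cell in runs 1, 2 and 3, from 5 UMIs in 62 cells. It fell by 2.45 (SE 0.54, edgeR adjusted p = 1.68e-04), a call that was also lost without run 1 (adjusted p = 0.175). Without the cells of 5 or more cone UMIs it was not called either, but that cut took no microglia and was made on the counts compared. Arr3 had no UMI, and the level that 3 counts would give, 0.0484 UMIs per cell, lies above the 0.0433 of Igfbp2-low Müller glia, so no difference was detectable at this depth. Opn1sw had 1 UMI, a ratio of 0.157 to Igfbp2-low Müller glia with a counting interval of 0.00397 to 0.875, and Opn1mw had 2 UMIs, a ratio of 0.324 (0.0392 to 1.17). These 3 were not called (edgeR adjusted p 0.0763 to 0.0898). As a share of RNA the 7 members with a UMI were called lower in microglia, where edgeR called 25.9% of all genes lower.

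Astrocytes held the fewest member UMIs. Gngt1 fell by 3.14 (SE 0.28), Gnat1 by 2.60 (SE 0.27), Sag by 2.26 (SE 0.21) and Pdc by 3.04 (SE 0.34) against Igfbp2-low Müller glia on the log2 scale, with edgeR adjusted p of 1.41e-13, 2.86e-11, 9.55e-13 and 1.97e-10. Among all genes 6.86% were called lower and 56% higher, and the median change was 0.79, so the members stood at -3.94, -3.39, -3.05 and -3.84 relative to it. These 4 falls were called under each of the 17 alternatives run for them.

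The cone members were all called lower in astrocytes too. Pde6h, Opn1sw and Opn1mw had 2 UMIs each in 176 cells, which gives ratios to Igfbp2-low Müller glia of 0.0238 (counting interval 0.00289 to 0.0862), 0.110 (0.0134 to 0.400) and 0.114 (0.0138 to 0.413). Arr3 had none, and was at least 2.54-fold lower when set at 3 counts over the class. Without the cells of 5 or more cone UMIs, Opn1sw and Opn1mw were no longer called. That cut took no astrocytes and was made on the counts compared, so it cannot test these differences. As a share of RNA all 8 members were called lower in astrocytes as well, against 22.4% of all genes. The comparisons of Igfbp2-high Müller glia, microglia and astrocytes share the Igfbp2-low cells, so their changes are not independent of each other.

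Microglia and astrocytes were then compared directly. Gngt1 rose by 1.47 (SE 0.52, edgeR adjusted p = 0.0292), Sag by 1.07 (SE 0.36, adjusted p = 0.0196) and Pdc by 1.89 (SE 0.60, adjusted p = 0.0130) in microglia, while Gnat1, at 1.05 (SE 0.52), was not called (adjusted p = 0.136). Among all genes 11.1% were called higher and 17.2% lower, and the median change was -0.27. Without the microglia of run 2, 15 cells, the 3 calls were lost and the changes were 0.36 (Gngt1), 0.68 (Sag) and 0.76 (Pdc). Without run 1 all 4 rod members were called higher, at 2.43 (Gngt1), 2.09 (Gnat1), 1.44 (Sag) and 3.64 (Pdc). In both classes cone members had 0 to 5 UMIs and none was called.

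By mean, astrocytes with more Müller transcripts held more rod UMIs per cell in each of the 3 runs, and microglia did in runs 1 and 2. The 20 microglia with Rlbp1, Aqp4 and Abca8a at 1 or more per 10000 held 2.00, 8.86 and 0 rod UMIs per cell in runs 1, 2 and 3 (12, 7 and 1 cells), and the 42 below that limit held 0.857, 0.750 and 1.83. With only these 42 microglia the difference from astrocytes was -0.20 for Gngt1, 0.31 for Sag and 0.26 for Pdc on the log2 scale, with edgeR adjusted p of 0.880, 0.657 and 0.840. The 114 astrocytes at 1 or more per 10000 held 1.05, 1.19 and 1.15 rod UMIs per cell, and the 62 below it 0.500, 0.550 and 0.194, with no overlap between the runs of the groups. The part of these Müller transcripts in the result was not tested.

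The share of cells with a rod UMI was also taken at 1 fixed depth. Sag was detected in 60.4% ± 3.51 of Igfbp2-high Müller glia, 36.7% ± 9.17 of microglia, 23.5% ± 2.74 of astrocytes and 56.5% ± 6.85 of Igfbp2-low Müller glia, whose median totals over all runs were 20311, 15571.5, 14084.5 and 9240.5 UMIs. With every cell thinned to 3500 UMIs, a limit below the lowest total of 3538, the shares were 26.1% ± 4.92, 16.2% ± 9.72, 5.32% ± 3.39 and 35.5% ± 5.09 in the same order. Gngt1 gave 17.7% ± 2.53, 10.9% ± 5.11, 2.25% ± 0.702 and 31.1% ± 2.40 after thinning. The mean Igfbp2-high share of Sag was thus above the Igfbp2-low share before thinning, within the spread between runs, and below it after. In run 2 it was 58.3% against 58.6% before thinning. The other rod members before thinning were at 46.8% ± 4.85 against 51.5% ± 6.70 (Gngt1), 46.7% ± 2.95 against 47.5% ± 7.02 (Gnat1) and 43.0% ± 3.88 against 42.9% ± 1.88 (Pdc). Astrocytes were the lowest class both times, with a median total above that of the Igfbp2-low Müller glia.

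The authors' table of log values held 13511 of the cells (54.7%), and the cells left out of it were richer in member UMIs. Igfbp2-low Müller glia in that table held 1.46, 2.96 and 2.40 rod UMIs per cell in runs 1, 2 and 3, and those not in it 9.53, 7.42 and 7.28. Igfbp2-high cells in the table held 4.98, 4.79 and 6.78, and those not in it 9.33, 6.57 and 7.44. Among cells of that table alone, all 4 rod members rose in Igfbp2-high against Igfbp2-low Müller glia, by 1.17 (Gngt1), 1.32 (Gnat1), 1.35 (Sag) and 1.44 (Pdc) on the log2 scale (edgeR adjusted p 7.65e-07 to 1.38e-05), and Opn1mw by 1.30 (adjusted p = 0.00171). In those cells 80.4% of all genes were called higher and the median change was 1.13, so the rod members stood close to the median of all genes there. The rod levels of the Müller classes thus overlapped over all cells of the count table and not over the cells of the log table. How the authors chose those cells is not given in the sources used here, and 9 astrocytes and no microglia of the present classes were among them.

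**Figure D5:**
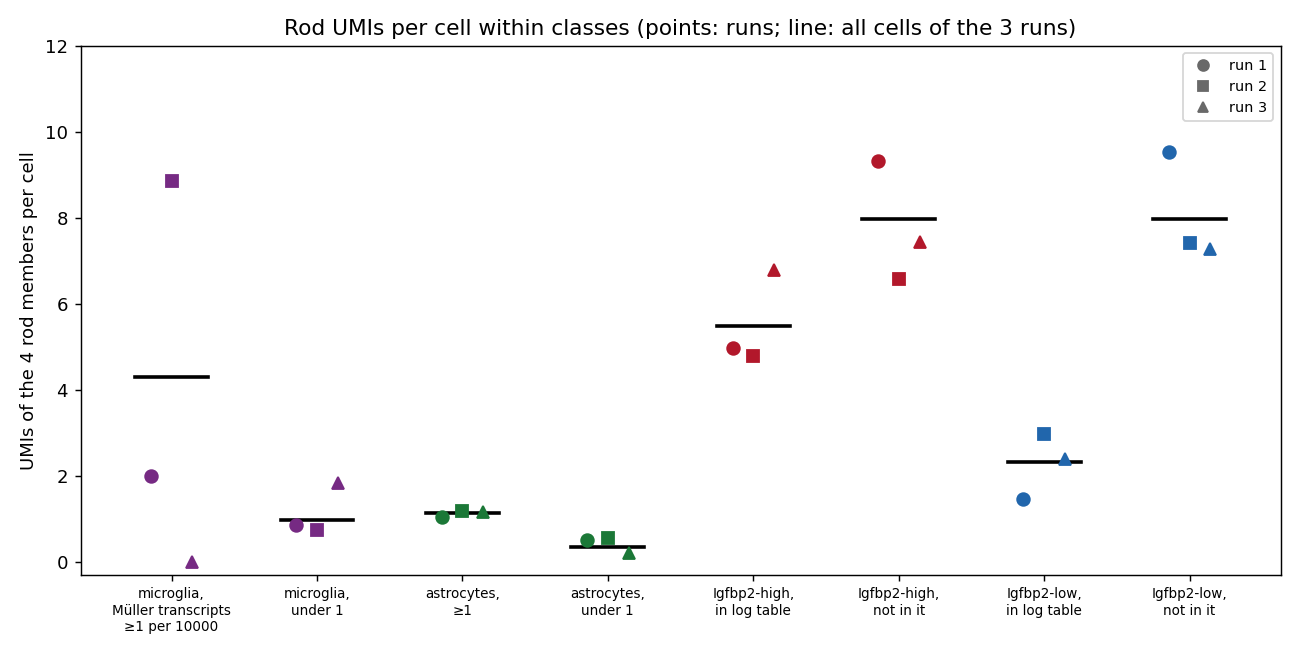
UMIs of the 4 rod members per cell (y axis, linear) within classes split by Müller transcripts (Rlbp1, Aqp4 and Abca8a at 1 or more, or under 1, per 10000 UMIs) or by presence in the authors' table of log values; points are runs and lines all cells of the 3 runs. Igfbp2-low Müller glia in that table sit between 1.46 and 2.96, below every run of those not in it.

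Other genes of the rod pathway were counted in the same fits. Of 14 further listed rod genes, 1 was called higher in Igfbp2-high against Igfbp2-low Müller glia (Nr2e3, a rod transcription factor, 0.25) and 1 lower (Reep6, -0.37), both named after their values were seen, where 76.9% and 7.92% of all genes were. The median change was 0.02 against 1.08 for all genes, and as a share of RNA 14 of 14 were called lower, against 39% of all genes. In microglia 10 of the 14 were called lower than in Igfbp2-low Müller glia, where 10.2% of all genes were, and the median was -1.59 against 0.45 for all genes. In astrocytes 14 of 14 were called lower, against 6.86% of all genes, with a median of -2.64 against 0.79, or -2.60 with Samd7, which had no UMI there, set at 3 counts. Rom1, a disc rim protein, was at 2.40 ± 0.231 UMIs per cell in Igfbp2-high Müller glia, 0.626 ± 0.400 in microglia, 0.856 ± 0.289 in astrocytes and 2.71 ± 0.427 in Igfbp2-low Müller glia.

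The cone pathway was counted in the same way. Of 9 further cone genes 7 passed the filter on low counts, and 3 of these were called lower in Igfbp2-high against Igfbp2-low Müller glia (Gnb3, Gngt2 and Pde6c, the last named after its values were seen) with none higher, where 7.92% of all genes were lower. As a share of RNA all 7 were called lower, against 39% of all genes. In microglia, Gngt2, a gamma subunit that cone transducin uses, was at 3.98 UMIs per cell against 0.192 in Igfbp2-low Müller glia and rose by 4.55 on the log2 scale, while Gnb3 and Ccdc136 fell. In astrocytes 5 of the 7 were called lower, against 6.86% of all genes, and Ccdc136 rose, to 0.602 UMIs per cell against 0.412, a direction that turned as a share of RNA (-0.34 on the log2 scale, edgeR adjusted p = 0.0579). Rpgrip1, a protein of the photoreceptor cilium from the list shared by rods and cones, rose by 1.98 in Igfbp2-high Müller glia to 1.25 UMIs per cell against 0.315, and was the 1 gene of 12 in that list called in that comparison. Of all genes, 76.9% were called higher there. As a share of RNA the other 11 of the list were called lower, against 39% of all genes.

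Over the 12 profiles of 4 classes and 3 runs, the genes whose levels were most like the summed rod members included Pde6g, the gamma subunit of the rod phosphodiesterase (Pearson r 0.97), Mfap3l (0.96), Cyp4f14 (0.96) and Sms (0.96). Those most like the summed cone members were Rbm20 (0.96), Stk35 (0.96), Aipl1 (0.95), Acsl3 (0.94) and Crym (0.93). Crym is an abundant Müller transcript, at 37.7 UMIs per cell in Igfbp2-high and 64.7 in Igfbp2-low Müller glia, so a like pattern over these profiles does not single out photoreceptor genes.

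Transcripts of other neurons and of the uptake machinery were set beside the members. The 11 listed bipolar cell genes summed to 0.903 ± 0.282 UMIs per cell in Igfbp2-high Müller glia, 0.262 ± 0.0541 in microglia, 1.02 ± 0.0360 in astrocytes and 0.379 ± 0.131 in Igfbp2-low Müller glia. The Igfbp2-high sum stood above the Igfbp2-low sum mostly through Trpm1, at 0.529 against 0.0642 UMIs per cell. The astrocyte sum rested on Prkca, a protein kinase C, at 0.913 UMIs per cell, and 5 of the 11 genes had no UMI there. The 10 amacrine cell genes summed to 0.354 ± 0.146, 0.106 ± 0.129, 1.00 ± 0.247 and 0.376 ± 0.00884 in the same classes. That astrocyte sum rested on C1ql1 (0.440), Nrxn2 (0.392) and Slc6a9 (0.100), while Snap25, a synaptic protein, was at 0.0152 in astrocytes and 0.121 in Igfbp2-low Müller glia. These genes were picked for their share of the sums after the values were seen. Of 18 genes of phagocytosis, 13 were called higher and 2 lower in Igfbp2-high against Igfbp2-low Müller glia where 76.9% and 7.92% of all genes were, with a median change of 0.77 against 1.08 for all genes. As a share of RNA, where 4975 of the 13680 genes tested were called higher and 39% lower, 8 were higher and 10 lower. Of these genes Cd68 is also in the list of microglia markers. Axl, a receptor for dying cells, was at 7.41 against 0.931 UMIs per cell. In microglia 11 were called higher than in Igfbp2-low Müller glia and 3 lower, where 34% and 10.2% of all genes were. As a share of RNA, where 25.9% of all genes were called lower, 7 were lower and 10 higher. The share of all genes higher on that scale is not given here. The median per cell was 1.92 against 0.45, and Ctsd, a lysosomal protease, was at 107 UMIs per cell against 3.95. The part of these genes in the rod levels was not tested.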

How the data were processed

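Per the submitters' processing notes, the authors used Cell Ranger (version not given) and mm10 to turn the droplet libraries into the deposited UMI counts, 1 whole number for every gene in every cell. A second deposited table holds natural log values, made by the authors with Seurat 2.3.4 per the same notes, and equal to ln(1 + 10000 × count / cell total) within 5e-07. It served only to mark which cells it held.

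Filters on genes detected (500 or more) and on mitochondrial UMIs (20% or less) left 24672 of 24695 cells. Raw counts were summed per class and run into 12 profiles and tested with edgeR 4.0.16 quasi-likelihood (filterByExpr, Benjamini-Hochberg adjusted p under 0.05 over 13680 genes), with the log number of cells as offset and the run as a block, since the classes of a run come from the same library. The SE is the absolute change over the square root of F. The method was tested on simulated data. Alternatives used TMM, DESeq2 1.42.0 size factors and test, and other cell limits. The members, lists and class limits were chosen with earlier results of these data known, and the Müller limit of 4 per 10000 for Müller glia was added here. Genes named beyond the members were, by mean UMIs per cell, up to 4 per photoreceptor list and up to 3 per other list, and the 5 most alike by Pearson r of log2(UMIs per cell + 0.01). Binomial and ratio intervals are exact 95% intervals, the floor is 3 counts, and thinning used seed 1. Positions are from GENCODE M21. Python 3.11.15, numpy 2.4.6, scipy 1.17.1, pandas 2.3.3 and R 4.3.3 were used. Some results that these rules would name are not reported here.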

Additional observations from a re-analysis of the deposited data

How the results depend on the processing

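Of the recomputed changes of members over the 4 comparisons, 429 kept their direction and their side of the threshold, 37 lost their call, 13 gained one and 18 changed sign. Between Igfbp2-high and Igfbp2-low Müller glia, TMM scaling gave -0.98 (Gnat1), -0.85 (Sag) and -0.94 (Pdc), and DESeq2 size factors -1.11, -0.98 and -1.07, scalings that take out the cell total. Changes near 0 also crossed it without being called: without 1 run at a time Gngt1 was -0.174 to 0.0880 and Gnat1 -0.00917 to 0.219, and Gngt1 was 0.0530 with a Müller limit of 8. In the cells of the log table Gngt1 was 1.17, Pde6h 0.39, Opn1sw 0.16 and Opn1mw 1.30. Without cells of 5 or more cone UMIs, an alternative chosen after seeing the data and cut on the counts compared, Pde6h was 0.15, Opn1sw 0.32 and Opn1mw 0.0714. Opn1mw in microglia over Igfbp2-low Müller glia was then 0.99. Gngt1 in microglia over astrocytes was -0.20 with microglia of few Müller UMIs, also chosen after seeing the data. The cause of the changes under choices of cells was not tested.

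Without 1 run at a time, genes called numbered 11062 to 11359 (Igfbp2-high over Igfbp2-low, 11603 in all runs), 6639 to 7900 (astrocytes over Igfbp2-low, 8600), 2661 to 6298 (microglia over Igfbp2-low, 6044) and 1771 to 3874 (microglia over astrocytes, 3874). The lowest microglia counts came without run 1, which leaves 22 microglia. Without the run as a replicate block, the counts were 10429, 7683, 5480 and 3347, Sag lost its call between the Müller classes (adjusted p = 0.232) and Pdc in microglia over Igfbp2-low Müller glia (adjusted p = 0.155). With DESeq2's test Sag (adjusted p = 0.222) and Arr3 (0.0570) were not called between the Müller classes, nor Pdc in either microglia comparison. Astrocytes and microglia were too few in the log table for that alternative. Counts of 0 to 5 cone UMIs in microglia and astrocytes limit every statement on cones there.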
